A study of Mus musculus with 6 samples.

Results

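Glucose transport, glycolysis and glycogen metabolism were followed through 10 genes in mouse heart: Slc2a1, Slc2a4, Hk1, Hk2, Pfkm, Pfkfb1, Pfkfb2, Gys1, Pygm and Ldha. The members are all probe sets annotated to exactly 1 of these symbols, a probe set being the group of short probes with which an Affymetrix array reads a transcript. This gave 17 probe sets for 9 genes, of 45037 non-control probe sets and 18193 named genes. Slc2a1 had 3 probe sets, Slc2a4, Hk1 and Gys1 had 2 each, Pfkfb2 had 4, and Hk2, Pfkm, Pygm and Ldha had 1. Pfkfb1, an isoform of the same bifunctional enzyme family as Pfkfb2, had no probe set under its symbol in the annotation used and was not analysed here.

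Glucose enters heart muscle cells through facilitative transporters, is trapped by phosphorylation at hexokinase, and is committed to glycolysis at phosphofructokinase. The product can instead be stored as glycogen, which glycogen synthase builds and glycogen phosphorylase breaks down. The adult heart takes most of its energy from fatty acids, and its use of glucose is known to shift with feeding, insulin, hypoxia and disease.

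The samples were hearts of male mice labelled C57BL/6J, in 3 groups of 2 arrays each. Both transgenic groups carried a transgene for fatty acid synthase (FASN), the enzyme that makes palmitate, driven by alpha-MHC, a promoter of heart muscle cells. One line had high and the other low cardiac FASN. The controls were B6 mice matched for age, with the age itself not given in the labels, and the tissue label of all 6 samples, controls included, calls the heart transgenic. Since 1 line stands for each FASN level, level and line cannot be told apart. Whether 2 arrays of a group are from different mice is not in the labels, and p-values reflect array-to-array spread alone, possibly technical.

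Signals are linear, in arbitrary units set by the array software, and precision is limited by having 2 arrays a group. The transgene's own gene followed the labels: Fasn read 2268 and 2104 in the high-FASN line, 462 and 481 in the low-FASN line, and 213 and 187 in controls. Arrays of 1 group correlated at 0.987 to 0.990 across the 22519 tested probe sets, and arrays of different groups at 0.969 to 0.977. Differences are on the scale log2(signal + 16), where the added 16 damps the noise of dim probe sets and makes changes of dim genes look smaller. Calls are Benjamini-Hochberg adjusted p below 0.05 in limma, adjusted over all tested probe sets, and all 17 member probe sets passed the filter on dim values. The 2 control arrays serve both comparisons with control. Where groups are said not to overlap, this only describes the arrays. Of the ways to split 4 arrays 2 against 2, 33.3% leave no overlap, and the share over all probe sets was not taken. Probe sets without any call, such as 1415959_at of Slc2a4, also showed no overlap.

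Most of these genes were lower in the low-FASN line than in control, and Pfkfb2 alone was higher, on its brightest probe set. Of the 17 member probe sets, 11 fell there, 1 rose and 5 did not pass, against 24.3% called in either direction over all tested probe sets (10.8% lower and 13.5% higher). The high-FASN line had 2 that rose, 2 that fell and 13 that did not pass, against 14.4% over all tested probe sets (8.18% higher and 6.18% lower). Between the lines 8 were higher in the high-FASN line, 1 was lower and 8 did not pass, against 18.6% (9.69% higher and 8.87% lower). Without low-FASN array 1 or 2 or control array 2 the count in the high-FASN line was 2, and between the lines it was 6 without low-FASN array 1 or 2. Cyclic loess turned the split in the high-FASN line from 2 higher and 2 lower to 2 higher and 5 lower. The median log2 difference of the 17 was -0.34 in the low-FASN line, where it was 0.018 over all tested probe sets. It was -0.19 in the high-FASN line (0.037 over all) and 0.26 between the lines (0.0055 over all). In the brightest 10% of tested probe sets the medians were -0.079 in the low-FASN line, 0.019 in the high-FASN line and 0.075 between the lines. The members are bright, and bright probe sets are called more often: above the 75th percentile of brightness, 35.8% were called in the low-FASN line (18.3% higher, 17.5% lower), 22.7% in the high-FASN line (12.3% and 10.4%) and 29.8% between the lines (16% and 13.7%). Among the 11 members above that percentile the corresponding counts were 8 (1 higher, 7 lower), 4 (2 and 2) and 7 (6 and 1). Probe sets of 1 gene share its transcript and are not independent: by gene, 8 of 9 had at least 1 call in the low-FASN line. Pfkfb2 was counted there although its calls went in opposite directions. The count was 4 of 9 in the high-FASN line and 7 of 9 between the lines. Such counts favour genes with several probe sets, and the share over all genes was not taken in this way. At the brightest probe set of each gene, 7 of 9 were called in the low-FASN line, against 27.6% of all genes counted so. Counted so, 4 of 9 were called in the high-FASN line (17% of all genes) and 6 of 9 between the lines (20.6%).

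**Figure D1:**
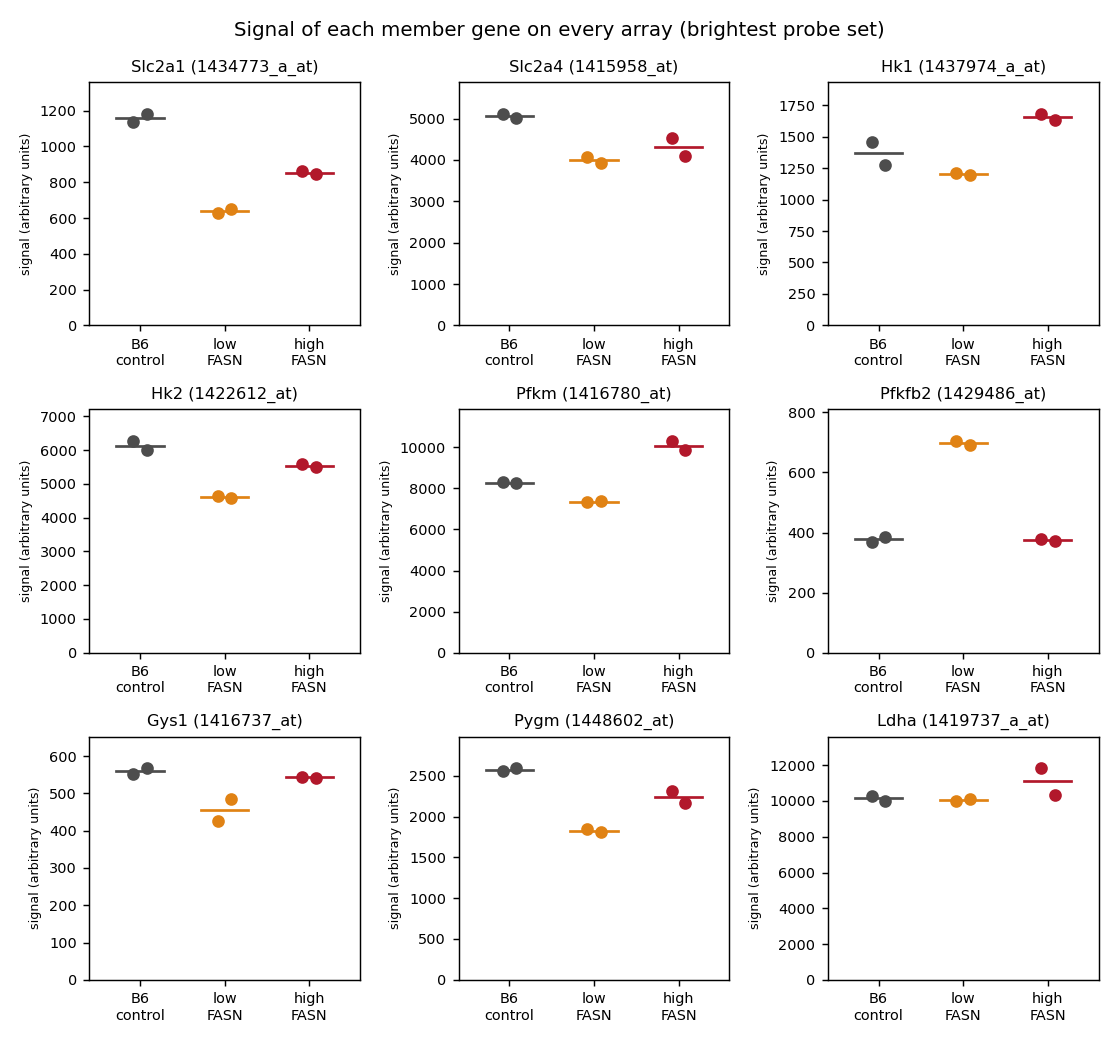
Signal of the brightest probe set of each of the 9 genes on every array, in arbitrary units on linear axes that start at 0; points are arrays and horizontal bars are group means of 2 arrays. Slc2a1, Slc2a4, Hk2, Pygm and Gys1 sit lowest in the low-FASN line, Pfkfb2 sits highest there at 704 and 690, and Pfkm and Hk1 sit highest in the high-FASN line.

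The DNA before the starts of 6 of these genes is shown because these are the members with a window that holds a motif known from glycolytic genes, and their transcripts took 3 courses in the low-FASN line: Slc2a1, Hk2, Pfkm and Pygm fell, Pfkfb2 rose, and Ldha did not pass. Each sequence is the 250 bases before the annotated start, 5′ to 3′ on the gene's strand, from RefSeq on GRCm38.p6. The windows are chr4:119108495-119108744 (+) for Slc2a1, chr6:82774455-82774704 (-) for Hk2, chr15:98092339-98092588 (+) for 1 of 4 annotated starts of Pfkm, chr19:6384158-6384407 (+) for Pygm, chr1:130715822-130716071 (-) for 1 of 3 annotated starts of Pfkfb2, and chr7:46845554-46845803 (+) for 1 of 2 of Ldha. Capitals mark ACGTG on either strand (CACGT when read on the other), a form of the core bound by hypoxia-inducible factors. It overlaps the E-box CACGTG bound by factors such as MYC and USF. Below, the core means ACGTG alone, and other forms were not searched.
Slc2a1: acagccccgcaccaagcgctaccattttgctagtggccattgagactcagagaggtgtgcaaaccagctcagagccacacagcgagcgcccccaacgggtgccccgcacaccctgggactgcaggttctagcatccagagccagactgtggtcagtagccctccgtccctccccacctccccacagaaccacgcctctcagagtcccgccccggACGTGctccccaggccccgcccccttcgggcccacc
Hk2: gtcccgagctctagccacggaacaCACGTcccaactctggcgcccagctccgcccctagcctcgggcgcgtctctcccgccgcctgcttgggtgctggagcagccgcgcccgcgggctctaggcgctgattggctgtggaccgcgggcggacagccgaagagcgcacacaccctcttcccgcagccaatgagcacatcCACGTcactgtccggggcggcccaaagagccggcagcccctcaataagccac
Pfkm: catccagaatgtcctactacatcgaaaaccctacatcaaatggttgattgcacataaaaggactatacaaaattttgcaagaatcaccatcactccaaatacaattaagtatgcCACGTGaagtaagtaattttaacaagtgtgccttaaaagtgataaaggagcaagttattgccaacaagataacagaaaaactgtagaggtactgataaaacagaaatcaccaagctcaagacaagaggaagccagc
Pygm: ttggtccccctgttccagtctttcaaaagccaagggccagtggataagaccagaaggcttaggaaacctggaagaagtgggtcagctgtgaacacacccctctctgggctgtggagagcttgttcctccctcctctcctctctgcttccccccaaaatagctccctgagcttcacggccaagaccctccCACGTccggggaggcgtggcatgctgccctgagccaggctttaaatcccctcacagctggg
Pfkfb2: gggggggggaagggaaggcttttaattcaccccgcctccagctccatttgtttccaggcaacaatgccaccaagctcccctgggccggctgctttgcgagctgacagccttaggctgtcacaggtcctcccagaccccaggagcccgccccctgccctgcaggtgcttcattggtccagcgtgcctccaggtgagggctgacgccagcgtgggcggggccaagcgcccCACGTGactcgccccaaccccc
Ldha: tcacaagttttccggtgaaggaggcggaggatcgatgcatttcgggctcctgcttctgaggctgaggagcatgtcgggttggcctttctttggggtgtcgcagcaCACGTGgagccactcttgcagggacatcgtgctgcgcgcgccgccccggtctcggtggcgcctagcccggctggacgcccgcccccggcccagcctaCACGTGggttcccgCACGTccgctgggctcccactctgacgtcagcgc
The core stood once in the Slc2a1 window, beginning 36 bases before the start, once in that of Pygm at 61 bases and in 2 places in that of Hk2, the nearer at 52 bases. Pfkm carried it as CACGTG, 136 bases before the start, Pfkfb2 likewise at 22 bases, and Ldha held it in 3 places, 2 of them CACGTG. The 19 windows listed for all members but Slc2a4, unmeasured Pfkfb1 included, overlap in part, and 8 held the core and 3 held CACGTG. No window of Hk1 or Gys1 held ACGTG on either strand. Of 32817 windows of this length over all genes, 16.6% held ACGTG on either strand and 6% held CACGTG. The matches are letters in a window and were not tested as binding sites.

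Slc2a1 encodes GLUT1, the transporter responsible for basal glucose uptake. Its brightest probe set (1434773_a_at) read 1135 and 1181 in control, 861 and 847 in the high-FASN line, and 626 and 651 in the low-FASN line. The 3 groups did not overlap, with control highest and the low-FASN line lowest. The mean fell from 1158 ± 32.5 in control to 638 ± 17.7 in the low-FASN line (SD, n = 2), a log2 difference of -0.84 ± 0.0717 (SE; limma adjusted p = 5.64e-05). In the high-FASN line, at 854 ± 10.4, it fell by 0.43 (adjusted p = 0.0041), 0.41 above the low-FASN line (adjusted p = 0.00455). These 3 calls held in every alternative run.

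The other Slc2a1 probe sets gave the same order of groups. The probe set 1426599_a_at read 515 and 554 in control, 429 and 423 in the high-FASN line, and 286 and 318 in the low-FASN line, and 1426600_at read 232 and 241, 180 and 187, and 135 and 148. Both fell in the low-FASN line, by 0.79 and 0.68 on the log2 scale (limma adjusted p = 0.00055 and 0.00663). In the high-FASN line their differences were -0.31 and -0.34 and did not pass (adjusted p = 0.0699 and 0.144). The lines differed on 1426599_a_at by 0.48 (adjusted p = 0.0112), a call lost without low-FASN array 1 (0.41, adjusted p = 0.0899). The call on 1426600_at in the low-FASN line was lost without low-FASN array 1 (adjusted p = 0.0546) and without control array 2 (adjusted p = 0.0503).

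Slc2a4 encodes GLUT4, the transporter that insulin and contraction bring to the cell surface. Its brighter probe set (1415958_at) read 5110 and 5016 in control, 4525 and 4093 in the high-FASN line, and 4074 and 3926 in the low-FASN line. Control arrays were highest and both lines lay below them, while the lines were next to each other, 4093 against 4074 at the nearest. It fell in the low-FASN line by 0.34 ± 0.0599 on the log2 scale (SE; limma adjusted p = 0.00325) and in the high-FASN line by 0.23 (adjusted p = 0.0302). The lines differed by 0.11, which did not pass (adjusted p = 0.262; 95% interval -0.029 to 0.24). The second probe set (1415959_at) read 952 and 951 in control, 938 and 912 in the high-FASN line, and 897 and 889 in the low-FASN line, with differences of -0.039 and -0.090 that did not pass (adjusted p = 0.753 and 0.382). The fall in each line therefore rests on 1 of 2 probe sets. That in the low-FASN line was lost without an intensity trend (limma adjusted p = 0.0612). That in the high-FASN line was lost without either control array, either low-FASN array or high-FASN array 2. It was also lost with median centring (adjusted p = 0.0545).

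**Figure D2:**
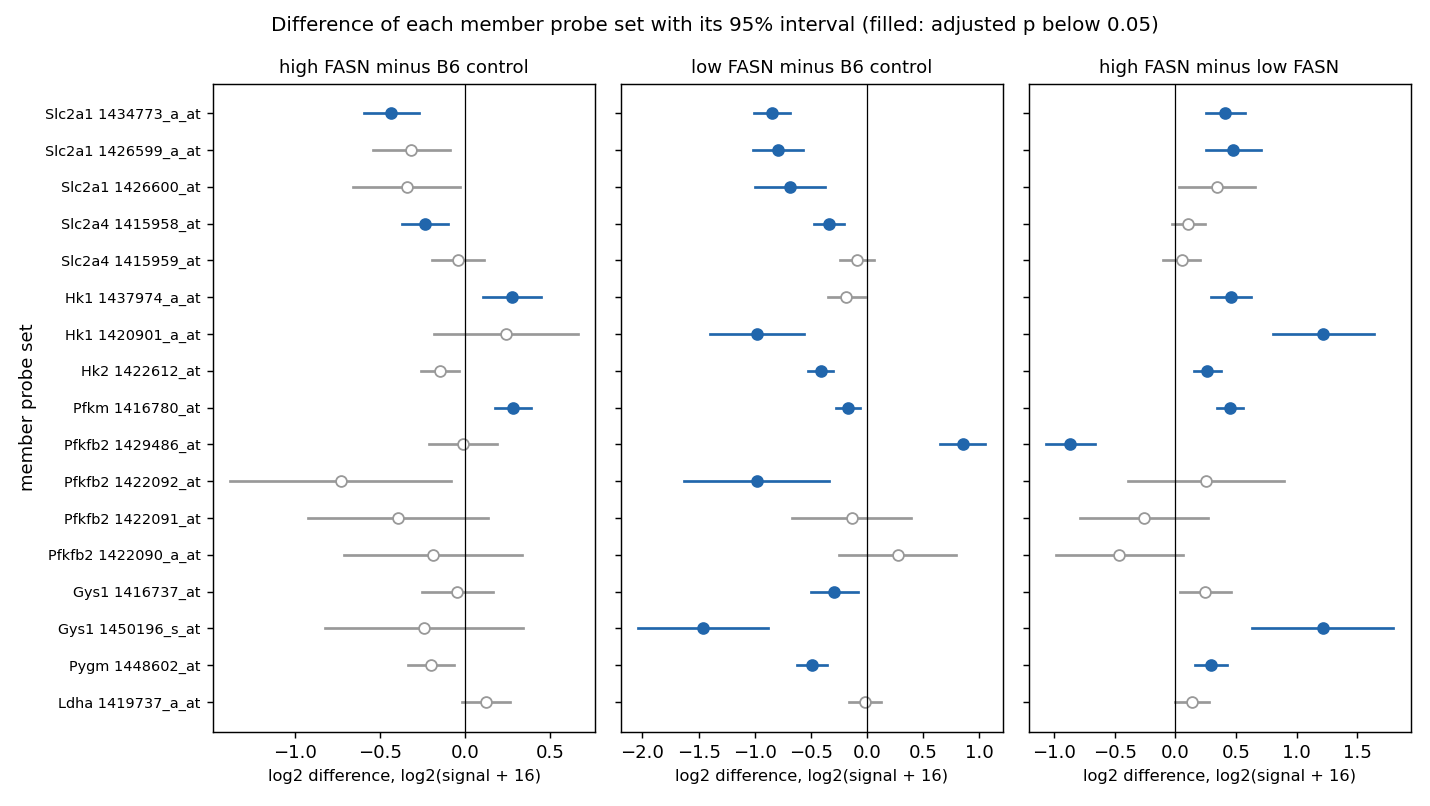
Log2 difference of each of the 17 member probe sets in the 3 comparisons, on the log2(signal + 16) scale, with 95% intervals from the limma fit; filled points have an adjusted p below 0.05. In the comparison of the low-FASN line with control 11 filled points lie below 0 and 1 above, and between the lines 8 lie above 0 and 1 below.

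Hk2 encodes hexokinase 2, the insulin-responsive isoform of muscle that binds mitochondria. It read 6264 and 6004 in control, 5587 and 5485 in the high-FASN line, and 4631 and 4592 in the low-FASN line. The groups did not overlap and kept the order seen for Slc2a1. The mean went from 6134 ± 184 in control to 4612 ± 27.4 in the low-FASN line (SD, n = 2), a fall of 0.41 ± 0.0493 on the log2 scale (SE; limma adjusted p = 0.000401). In the high-FASN line, at 5536 ± 72.2, the difference of -0.15 did not pass (adjusted p = 0.0796; 0.0409 with cyclic loess). The lines differed by 0.26 (adjusted p = 0.00648), a call lost without low-FASN array 1 or 2 (adjusted p = 0.062 and 0.0713).

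Hk1, the hexokinase isoform found in most tissues, took another course. Its brighter probe set (1437974_a_at) read 1458 and 1275 in control, 1679 and 1632 in the high-FASN line, and 1209 and 1193 in the low-FASN line. The high-FASN line was highest and the low-FASN line lowest, with no overlap, although the 2 control arrays were far apart. It rose in the high-FASN line by 0.28 ± 0.0750 on the log2 scale (SE; limma adjusted p = 0.0378). That call was lost with median centring, and without either high-FASN array, either low-FASN array or control array 2, at adjusted p from 0.0542 to 0.238. In the low-FASN line the difference of -0.18 did not pass (adjusted p = 0.112). The lines differed by 0.46 (adjusted p = 0.00336).

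The dimmer Hk1 probe set (1420901_a_at) read 172 and 139 in control, 177 and 196 in the high-FASN line, and 62.4 and 79.6 in the low-FASN line. On it the low-FASN line was lower than control by 0.98 ± 0.187 (SE; limma adjusted p = 0.00474) and lower than the high-FASN line by 1.22 (adjusted p = 0.00248), while the high-FASN line stood 0.24 above control and did not pass (adjusted p = 0.44). The 2 probe sets agree in the order of the groups and differ in which difference from control passed.

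Pfkm encodes the muscle subunit of phosphofructokinase, the committed step of glycolysis. It read 8320 and 8246 in control, 10301 and 9849 in the high-FASN line, and 7344 and 7370 in the low-FASN line. The lines lay on opposite sides of control without overlap. The rise in the high-FASN line was 0.28 ± 0.0474 on the log2 scale (SE; limma adjusted p = 0.00433), from 8283 ± 52.4 to 10075 ± 320 (SD, n = 2). The fall in the low-FASN line, to 7357 ± 19.0, was 0.17 (adjusted p = 0.0274), and it was lost without either control array or either low-FASN array and with quantile normalization, median centring and cyclic loess, at adjusted p from 0.0618 to 0.163. The lines differed by 0.45 (adjusted p = 0.000401), which passed in every alternative run.

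Pfkfb2 encodes the heart isoform of the bifunctional enzyme that makes and removes fructose 2,6-bisphosphate, the strongest allosteric activator of phosphofructokinase. Its brightest probe set (1429486_at) read 704 and 690 in the low-FASN line, against 369 and 386 in control and 379 and 371 in the high-FASN line. The low-FASN arrays stood apart and the other groups overlapped. The rise from 378 ± 12.3 to 697 ± 9.64 (SD, n = 2) was 1.81-fold, a log2 difference of 0.86 ± 0.0895 (SE; limma adjusted p = 0.000181). The high-FASN line differed from control by -0.011 (adjusted p = 0.956; 95% interval -0.21 to 0.19) and from the low-FASN line by -0.87 (adjusted p = 0.000366). The calls on the low-FASN line held in every alternative run.

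The 3 dimmer Pfkfb2 probe sets did not repeat that rise. The probe set 1422092_at read 116 and 99.99 in control, 78.6 and 43.1 in the high-FASN line, and 36.9 and 58.6 in the low-FASN line. It fell in the low-FASN line by 0.98 ± 0.288 (SE; limma adjusted p = 0.0344), the opposite direction, and that call was lost without any one of the low-FASN line or control arrays, at adjusted p from 0.053 to 0.203. The probe set 1422091_at read 57.5 and 71.6 in control and 57.2 and 56.9 in the low-FASN line, and 1422090_a_at read 47.1 and 53.4 in control and 64.8 and 63.4 in the low-FASN line. Neither passed in any of the 3 comparisons. Both lie just above the filter on dim values, which stood at a mean of about 47.0 in signal units, so the rise rests on the 1 bright probe set of 4.

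Ldha encodes the lactate dehydrogenase subunit of fast muscle, which makes lactate from pyruvate. It was the brightest member and read 10305 and 10004 in control, 11824 and 10356 in the high-FASN line, and 10004 and 10128 in the low-FASN line. The low-FASN line overlapped control, and both high-FASN arrays were above it by unequal amounts. No comparison passed: the low-FASN line differed by -0.012 (limma adjusted p = 0.912; 95% interval -0.15 to 0.13) and the high-FASN line by 0.12 (adjusted p = 0.232; -0.018 to 0.27). Without high-FASN array 2, which leaves the single high-FASN array at 11824, the difference in the high-FASN line was 0.22 (adjusted p = 0.0097).

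Pygm encodes muscle glycogen phosphorylase, which releases glucose 1-phosphate from glycogen. It read 2554 and 2590 in control, 2318 and 2163 in the high-FASN line, and 1842 and 1810 in the low-FASN line. Again control was highest and the low-FASN line lowest, with no overlap. It fell in the low-FASN line from 2572 ± 25.2 to 1826 ± 23.1 (SD, n = 2), by 0.49 ± 0.0589 on the log2 scale (SE; limma adjusted p = 0.000396). The high-FASN line, at 2240 ± 110, differed from control by -0.20, just outside the threshold (adjusted p = 0.0524; 0.0416 with cyclic loess). The lines differed by 0.29 (adjusted p = 0.00901), a call lost without low-FASN array 1 or 2 (adjusted p = 0.062 and 0.0793).

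Gys1 encodes muscle glycogen synthase, the opposing enzyme. Its brighter probe set (1416737_at) read 553 and 567 in control, 545 and 542 in the high-FASN line, and 427 and 486 in the low-FASN line. The low-FASN arrays were lowest and also the most unequal. The fall in the low-FASN line of 0.29 ± 0.0936 lay at the threshold (SE; limma adjusted p = 0.0498) and was lost without any one of the low-FASN line or control arrays (adjusted p from 0.0618 to 0.285). The high-FASN line differed from control by -0.043 (adjusted p = 0.801). The dimmer probe set (1450196_s_at), of a class that can match transcripts of more than 1 gene, read 194 and 153 in control, 142 and 145 in the high-FASN line, and 74.2 and 36.3 in the low-FASN line. It fell by 1.46 ± 0.259 in the low-FASN line (adjusted p = 0.00331), with a gap of 1.22 between the lines (adjusted p = 0.0113; 0.0695 without low-FASN array 2).

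Of the pathway's other genes, 56 had a tested probe set out of 74 listed, counted at the brightest tested probe set of each gene. In the low-FASN line 18 fell, 9 rose and 29 did not pass, with a median of -0.14. The high-FASN line had 8 that fell, 8 that rose and 40 that did not pass, with a median of 0.035. Between the lines 14 were higher in the high-FASN line, 4 were lower and 38 did not pass, with a median of 0.12. Over the 11498 genes counted in the same way, 27.6% were called in the low-FASN line (14.9% higher, 12.7% lower), 17% in the high-FASN line (10% and 6.98%) and 20.6% between the lines (11.4% and 9.23%). When single arrays were left out, the 16 calls in the high-FASN line became 9 to 15, with 9 without either control array. The 27 in the low-FASN line became 14 to 30, with 15 and 14 without low-FASN array 1 and 2 and 16 without control array 1. Between the lines, 18 became 8 to 20, with 11 and 8 without low-FASN array 1 and 2.

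**Figure D3:**
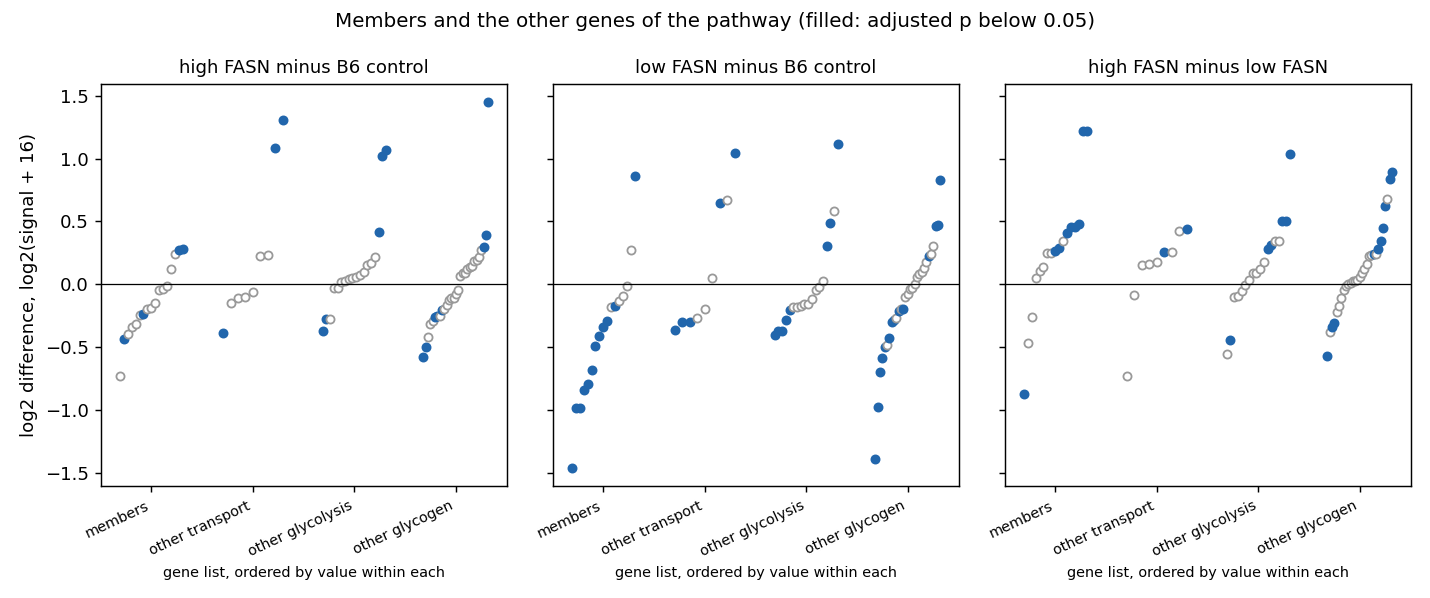
Log2 differences, on the log2(signal + 16) scale, of the 17 member probe sets and of the other pathway genes (9 of transport, 18 of glycolysis, 29 of glycogen metabolism, 1 probe set a gene), ordered by value within each list; filled points have an adjusted p below 0.05. In the low-FASN line 10 of 29 glycogen genes have filled points below 0 and 4 above, and in the high-FASN line 5 lie below and 3 above.

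Among the 9 other genes of sugar, lactate and pyruvate transport, 2 rose and 1 fell in the high-FASN line, and 2 rose and 3 fell in the low-FASN line. Txnip, whose product drives the removal of GLUT1 and GLUT4 from the cell surface and whose transcription is raised by glucose, read 3676 and 3889 in control, 5791 and 6089 in the low-FASN line, and 7904 and 8184 in the high-FASN line. The groups did not overlap. It rose by 1.09 ± 0.0541 in the high-FASN line (SE; limma adjusted p = 2.45e-06). In the low-FASN line the rise was 0.65 (adjusted p = 5.03e-05), and its second probe set rose too, by 1.24 and 0.41. Slc2a13, a myo-inositol transporter of the GLUT family, was dim in control at 33.7 and 35.5 and rose by 1.31 in the high-FASN line and 1.04 in the low-FASN line (adjusted p = 0.00632 and 0.0108). Bsg, the chaperone of the lactate carriers, fell by 0.39 in the high-FASN line and 0.30 in the low-FASN line (adjusted p = 0.00166 and 0.00373). The lactate carrier gene Slc16a1 and the mitochondrial pyruvate carrier gene Mpc1 fell in the low-FASN line by 0.30 and 0.36 (adjusted p = 0.00347 and 0.000625), and in the high-FASN line stood at -0.15 and -0.10 without passing (adjusted p = 0.105 and 0.18). Slc2a3, the neuronal transporter GLUT3, was dim and did not pass (0.67 in the low-FASN line, adjusted p = 0.086).

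Among the 18 other glycolytic genes, 3 rose and 2 fell in the high-FASN line, and 3 rose and 5 fell in the low-FASN line. Pfkp, the platelet isoform of phosphofructokinase, read 734 and 786 in control, 949 and 931 in the low-FASN line, and 1028 and 1015 in the high-FASN line, a rise of 0.42 and 0.30 in the high and low-FASN line (limma adjusted p = 0.00478 and 0.0138). Its dim second probe set read 32.0 and 36.9 in control, 55.5 and 46.3 in the high-FASN line, and 72.6 and 85.7 in the low-FASN line, where it rose by 0.91 (adjusted p = 0.0214), and it did not pass in the high-FASN line (adjusted p = 0.302). Pfkfb3, the inducible relative of Pfkfb2, was dim in control at 63.9 and 101 and rose by 1.06 and 1.12 (adjusted p = 0.0278 and 0.0142), with low-FASN arrays far apart at 144 and 257. Pkm, pyruvate kinase, read 2378 and 2169 in control, 2465 and 2391 in the high-FASN line, and 1647 and 1780 in the low-FASN line. It fell in the low-FASN line by 0.40 (adjusted p = 0.00246) and differed by 0.50 between the lines (adjusted p = 0.00139). Fbp2, muscle fructose bisphosphatase, and Pgam2, muscle phosphoglycerate mutase, also fell in the low-FASN line, by 0.29 and 0.21 (adjusted p = 0.0424 and 0.0226), and were higher in the high-FASN line than in the low by 0.50 and 0.28 (adjusted p = 0.00499 and 0.00771). Tigar, which removes fructose 2,6-bisphosphate, fell in both lines by 0.37 (adjusted p = 0.0245 and 0.0162), a fall that its other 2 tested probe sets did not pass.

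Gpd1, the glycerol 3-phosphate dehydrogenase that links glycolysis to triglyceride synthesis and is abundant in fat, read 589 and 646 in the high-FASN line, 279 and 305 in the low-FASN line, and 333 and 264 in control. Only the high-FASN arrays stood apart. It rose by 1.02 ± 0.128 in the high-FASN line (SE; limma adjusted p = 0.000906) and differed by -0.021 in the low-FASN line (adjusted p = 0.926), and its 2 dimmer probe sets, at 0.50 and 0.56 in the high-FASN line, did not pass. Its relative Gpd1l rose in the low-FASN line by 0.49 (adjusted p = 0.00321) on its brighter probe set, and stood at -0.18 on the dimmer one, which did not pass (adjusted p = 0.595).

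**Figure D4:**
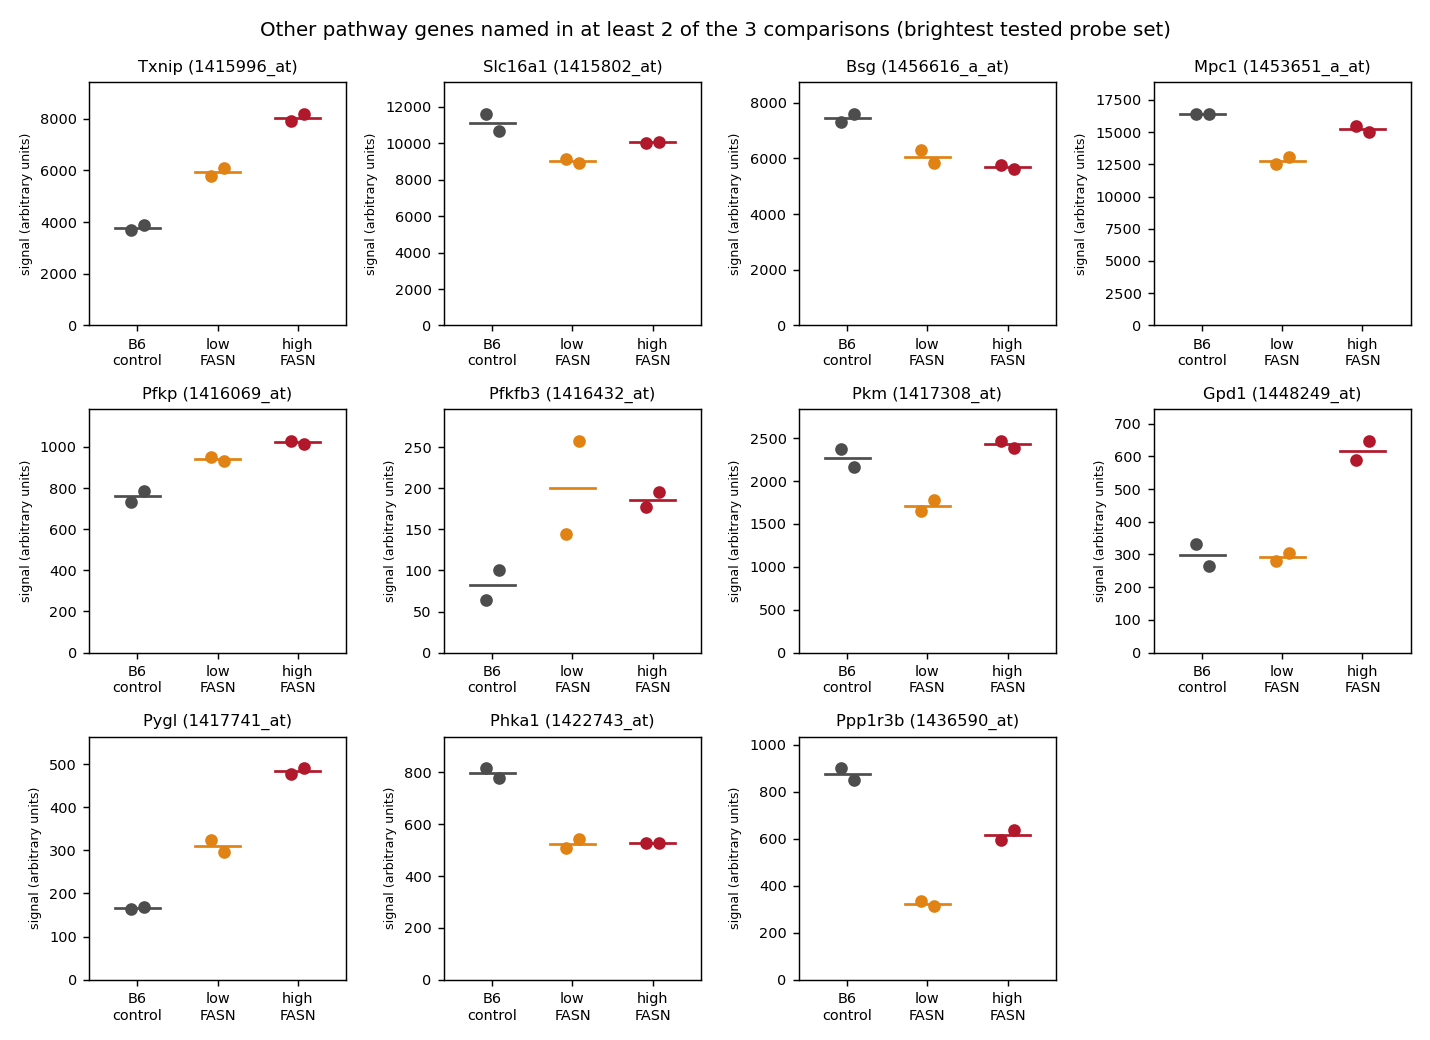
Signal on every array of the 11 other pathway genes that were among the 4 smallest p-values of their list in at least 2 of the 3 comparisons; axes are linear, start at 0 and are in arbitrary units, points are arrays and bars are means of 2 arrays. Txnip and Pygl rise from control through the low to the high-FASN line, Ppp1r3b is lowest in the low-FASN line at 337 and 312, and Gpd1 is high in the high-FASN line alone.

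Of the other genes of glycogen metabolism, 29 were tested. In the high-FASN line 3 rose and 5 fell, in the low-FASN line 4 rose and 10 fell, and between the lines 7 were higher and 3 lower in the high-FASN line. Ppp1r3b and Ppp1r3c encode glycogen-targeting subunits that bring protein phosphatase 1 to glycogen, where it activates the synthase. Ppp1r3b read 900 and 852 in control, 595 and 636 in the high-FASN line, and 337 and 312 in the low-FASN line, and fell by 1.39 ± 0.0888 in the low-FASN line (SE; limma adjusted p = 1.16e-05) and by 0.50 in the high-FASN line (adjusted p = 0.00589). Ppp1r3c fell in the same order, by 0.50 and 0.26 (adjusted p = 0.000152 and 0.00839), from 4854 and 4967 in control. Its dimmer probe set fell by 0.88 in the low-FASN line (adjusted p = 0.000612) and did not pass in the high-FASN line (-0.30, adjusted p = 0.12). For both the groups did not overlap, with control highest and the low-FASN line lowest, the order seen for Slc2a1, Hk2 and Pygm. Phka1, the muscle regulatory subunit of the kinase that activates phosphorylase, fell by 0.59 in the low-FASN line and 0.58 in the high-FASN line (adjusted p = 0.00097 and 0.00183), although its 2 dimmer probe sets did not pass.

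The phosphorylase isoforms did not move together. Pygl, the liver isoform, read 165 and 168 in control, 324 and 295 in the low-FASN line, and 477 and 490 in the high-FASN line, and rose by 1.45 ± 0.113 in the high-FASN line (SE; limma adjusted p = 5.22e-05) and 0.83 in the low-FASN line (adjusted p = 0.000779). Pygb, the brain isoform, which the heart also expresses, fell in the low-FASN line by 0.30 (adjusted p = 0.00209) and differed by 0.45 between the lines (adjusted p = 0.000465), as Pygm did. Pgm5, a phosphoglucomutase relative of muscle adhesion sites, rose by 0.39 and 0.23 in the high and low-FASN line (adjusted p = 0.00592 and 0.0418). Ppp1cb, a catalytic subunit of protein phosphatase 1, fell in the high-FASN line by 0.21 (adjusted p = 0.0212).

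Markers of several cell types also differed between the groups. Heart muscle markers, all 8 tested, were bright in all groups, with summed signals of 197303 to 219741 in the high-FASN line, 160388 to 163500 in the low-FASN line and 173673 to 180904 in control. Of these, 6 rose and 0 fell in the high-FASN line, 0 rose and 1 fell in the low-FASN line, and 6 were higher in the high-FASN line than in the low. Among the members Pfkm and Hk1, and by its means Ldha, had the same order of groups, while Slc2a1, Slc2a4, Hk2, Pygm and Gys1 were highest in control. The other pathway genes were also mixed. Pkm, Fbp2, Pgam2 and Pygb were among those with the order of the muscle markers, and Ppp1r3b and Ppp1r3c among those highest in control. Adipocyte markers, 6 of 8 with a probe set, summed to 4552 to 4893, 2411 to 2476 and 369 to 523 in the high-FASN line, low-FASN line and control, and 4 of 5 tested rose in each line. Gpd1, Pygl and Slc2a4 are expressed in fat as well as in heart. Of the brown fat markers, 2 of 4 tested rose in each line. Airway markers summed to 3084 to 3277 in the high-FASN line, against 234 to 311 in the low-FASN line and 227 to 237 in control. Of these 6 genes 4 rose in the high-FASN line, while Sftpc and Sftpb did not pass in either line. In the low-FASN line 1 rose, Scgb1a1, which read 129 and 122 there and 6.19 and 2.47 in control. Smooth muscle markers were about 11392 to 11899 in the lines and 5466 to 5607 in control, and fibroblast markers 34070 to 36111 and 29442 to 30229. Of 5 smooth muscle genes 4 rose in each line, and Smtn fell in the low-FASN line. Most of that sum was Acta2, at 8466 to 9237 in the lines. Of 6 fibroblast genes 4 rose in each line, and the brightest, Dcn, did not pass against control in either. The part of these markers in the results was not tested, and in bulk tissue fewer cells of a type and less RNA per cell cannot be told apart. Fast skeletal muscle markers stayed dim, at summed signals of 197 to 316 over 8 genes on all 6 arrays, with Actn3 between 3.46 and 16.8.

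The endothelial markers summed to 5990 to 6282 in the high-FASN line, 6451 to 6492 in the low-FASN line and 4828 to 4973 in control. Of these 6 genes, 3 rose and 0 fell in each line, and between the lines 1 was higher and 1 lower in the high-FASN line. Endothelium also expresses Slc2a1, and its part in the Slc2a1 values was not tested. Macrophage markers summed to 6114 to 6778 on all arrays, with 3 of 6 lower in the high-FASN line. Neutrophil markers were dim, at 140 to 177 in the lines and 311 to 362 in control. Of the red cell markers only 3 of 7 had a probe set, and their summed signal was 133 to 200.1 in the high-FASN line, 83.8 to 99.99 in the low-FASN line and 52.0 to 80.2 in control.

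The transcripts with the most similar course over the 6 arrays are given as a description, for 1 gene of each role. For Slc2a4 they were Serpina3n, Pafah1b1 and Rab10, with Pearson's r of log2 values of 0.999, 0.998 and 0.995. Of these Serpina3n was dim in the lines, at 9.23 to 61.4 against 194 and 182 in control. For Hk2 they were Kars, Polb and Esrrg (0.999, 0.998 and 0.997), and for Gys1 Fam229b, Zfpm2 and Tmppe (0.996, 0.995 and 0.995). The values were not tested.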

How the data were processed

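Biotin-labelled RNA of 6 heart samples was read on Affymetrix arrays, per the labels' protocols. The authors deposited linear signal intensities, 1 per probe set and array. GCOS is the tool named in the submitters' processing notes; its version and settings were not stated in any source used. Each array's mean, trimmed by 2% at both ends, was 300.002, so the deposited scaling was kept. Without 64 controls there were 45037 probe sets; the platform annotation names 1 gene for 34945, several for 932 and none for 9160. Updating symbols by Entrez identifier against RefSeq GRCm38.p6 altered 0 of them.

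The values were taken as log2(signal + 16) and tested with limma 3.58.1 (R 4.3.3) where the mean log2 value reached the median of all probe sets (22519). The model held the means of the 3 groups (lmFit, eBayes with intensity trend), with two-sided tests and Benjamini-Hochberg adjustment. It was tested on simulated data for the high-FASN line minus control, over 22519 probe sets. Of 50 planted changes per size it found 6 at log2 0.3, 20 at 0.5, 39 at 1 and all 50 at 2, and it called 17 others. Deviations of arrays with the same replicate number correlated at 0.0396, 0.0273 and 0.000398, so the numbers were not taken as pairs.

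The members, the lists and the tests were chosen with earlier results of these data known. Named are all members, of each list of other pathway genes up to 4 with the smallest p in each comparison, and the 3 most similar courses for Slc2a4, Hk2 and Gys1. The plots were made in matplotlib 3.10.9 and Python 3.11.15. Alternatives covered normalization, pseudocount, filter, variance model, the replicate block and leaving out each array.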

Additional observations from a re-analysis of the deposited data

Results flagged for a closer look

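For 9 of 17 member probe sets the difference from control was not the same in the 2 lines. The test was the limma test of high-FASN line minus low-FASN line, which also tests that difference because both lines share the control arrays. These are the 9 calls between the lines given above, against 18.6% called over all tested probe sets. Above the 75th percentile of brightness 29.8% were called, and 7 of 11 members. The Pfkm probe set differed by 0.45 between the lines (adjusted p = 0.000401), with 0.28 in the high and -0.17 in the low-FASN line. Both Hk1 probe sets were also above control in the high-FASN line and below it in the low-FASN line, with differences between the lines of 0.46 and 1.22 (adjusted p = 0.00336 and 0.00248). Against control, 1437974_a_at did not pass in the low-FASN line (adjusted p = 0.112) and 1420901_a_at did not pass in the high-FASN line (adjusted p = 0.44).

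Slc2a1 was below control in both lines and further below in the low-FASN line, by 0.41 and 0.48 on 1434773_a_at and 1426599_a_at (adjusted p = 0.00455 and 0.0112; the latter 0.0899 without low-FASN array 1). Hk2, Pygm and the dimmer Gys1 probe set were lower than control in the low-FASN line and nearer to it in the high-FASN line. The lines differed on them by 0.26, 0.29 and 1.22 (limma adjusted p = 0.00648, 0.00901 and 0.0113). The calls on Hk2 and Pygm were lost without low-FASN array 1 or 2, and that on Gys1 without low-FASN array 2. Pfkfb2 was higher in the low-FASN line on 1429486_at, with a difference between the lines of -0.87 (adjusted p = 0.000366).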

How the results depend on the processing

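The count of 12 called member probe sets in the low-FASN line ranged from 8 to 12 when single arrays were left out and was 7 of 9 with 1 probe set per gene. The count of 9 between the lines ranged from 6 to 11 without single arrays. The count of 4 in the high-FASN line was the least stable: it ranged from 2 to 4 without single arrays, and was 2 with median centring, 2 with no filter, 2 with only the 4 arrays compared, 1 without an intensity trend and 7 with cyclic loess. Calls among the other pathway genes fell to 6, 13 and 7 without an intensity trend (high-FASN line, low-FASN line, between the lines) and ranged from 9 to 15, 14 to 30 and 8 to 20 without single arrays. The member counts without an intensity trend were 1, 8 and 6 in that order, with 4 higher and 2 lower between the lines. That setting lost the calls between the lines on Hk2, Pygm, Hk1 1437974_a_at and Gys1 1450196_s_at (limma adjusted p = 0.101, 0.0907, 0.0567 and 0.0628). It also lost the Pfkm rise in the high-FASN line (adjusted p = 0.106), and gained Pfkfb2 1422090_a_at between the lines (adjusted p = 0.0499). With the replicate number as a block the member counts were 4, 11 and 9 (high-FASN line, low-FASN line, between the lines). The block ended the low-FASN line call on the brighter Gys1 probe set (adjusted p = 0.0511) and changed no other member's call. Directions turned only for differences that were not called. Ldha in the low-FASN line went from -0.012 to 0.083 with quantile normalization and 0.088 with cyclic loess, and ranged from -0.034 to 0.0088 without single arrays, turning without control array 1. Pfkfb2 1429486_at in the high-FASN line ranged from -0.042 to 0.021 without single arrays (0.0042 without high-FASN array 2), and Pfkfb2 1422092_at between the lines from -0.088 to 0.59, turning without high-FASN array 1. Over all members and alternatives, 802 values kept direction and side of the threshold, 56 lost a call and 12 gained one. In the self-test 6 of 50 planted differences were found at log2 0.3 and 20 of 50 at 0.5, so such differences are often missed. It also called 17 probe sets without a planted change, beside the 6, 20, 39 and 50 planted ones found. In this simulation false calls were thus a larger share of the calls than the threshold of 0.05, so a single call can be false. No detection calls were used, so how far dim members lie above background was not judged.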

Other observations

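Other pathway genes moved in the low-FASN line beyond those described, chosen here after their values were seen. Stbd1, which anchors glycogen to membranes, rose from 297 and 306 in control to 410 and 435 in the low-FASN line, by 0.47 on the log2 scale (limma adjusted p = 0.0106), and read 281 and 277 in the high-FASN line. Gaa, the lysosomal glucosidase that digests glycogen, read 666 and 613 in the low-FASN line against 822 and 910 in control, a fall of 0.43 (adjusted p = 0.00572). Ugp2, which makes the UDP-glucose that glycogen synthase uses, fell by 0.29 in the low-FASN line and 0.25 in the high-FASN line (adjusted p = 0.00428 and 0.013). Ppp1r3d, a glycogen-targeting subunit like Ppp1r3b, went the other way, rising by 0.47 and 0.30 (adjusted p = 0.00363 and 0.0448).

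The probe sets of Ppp1cb differed in size. In the high-FASN line its brightest tested probe set fell by 0.21, and 2 others by 0.42 and 0.94 (limma adjusted p = 0.00132 and 0.000232), while the dimmest, at -0.074, did not pass (adjusted p = 0.697).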
